A study of Mus musculus with 2 samples.

Results

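Cxcl1, Cxcl2 and Cxcl3, a group of chemokines that draw neutrophils, and Cxcr2, the receptor through which neutrophils sense them, were followed across the cell types of the fatty liver. The 4 genes were found by their symbols among the 27998 genes listed for both libraries. They were chosen by their UMI counts per cell type and library, with results of these data known, so their levels and ratios below are descriptions. The 3 ligands carry a Glu-Leu-Arg motif before the first cysteines, the feature that lets a CXC chemokine bind CXCR2. Their transcription is switched on through NF-κB by interleukin-1, TNF and bacterial products, in macrophages, stromal cells, epithelium and neutrophils themselves. CXCR2 is a G protein-coupled receptor that governs the release of neutrophils from bone marrow and their entry into injured liver, and it is lost from the surface after binding its ligands.

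The cells were non-parenchymal liver cells, meaning the immune, vascular and stromal cells left once hepatocytes are removed, obtained by perfusing the liver and spinning the cells through a density gradient. All mice had eaten an MCD diet, which lacks methionine and choline, for 8 weeks. One group was PKM2FL/FL (FL/FL below), with floxed alleles of the gene for the pyruvate kinase isoform PKM2, and the other PKM2ΔMAC (ΔMAC below), named for a deletion in macrophages. The Cre driver, the number of animals pooled, their age and their sex are not named in the labels, and no group on a normal diet was analysed here. With 1 library per genotype there was no replicate, so no test between genotypes was possible, and each comparison is between 2 libraries. Intervals in parentheses are at 95% and cover counting error only.

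After filtering, 9510 FL/FL cells and 8549 ΔMAC cells remained, with medians of 4384 and 3716 UMIs (unique molecular identifiers, 1 per captured transcript). The libraries shared 14 cell barcodes among those kept. Cells were assigned to types by how many of a fixed set of marker genes they contained, without use of the 4 genes, which placed 90.8% of FL/FL cells and 91.9% of ΔMAC cells. Names end in "-like" because they rest on transcripts alone. Pkm, the targeted gene, was at 313 CPM (UMIs scaled to a sum of 1000000 over all genes of the cell type) in FL/FL and 151 CPM in ΔMAC Kupffer-like cells, a ratio of 0.482 (0.290 to 0.790). The same ratio was 0.557 (0.495 to 0.624) in classical monocyte-like cells and 0.444 (0.401 to 0.490) in neutrophil-like cells. Since 3' tags can fall outside a deleted exon, this is no check of the deletion.

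The 3 ligand genes lie together on mouse chromosome 5 (build GRCm38, GENCODE M21, plus strand), within 119.8 kb. Cxcl3 (ENSMUSG00000029379) spans 90786103 to 90789600, Cxcl1 (ENSMUSG00000029380) spans 90891241 to 90893115 and Cxcl2 (ENSMUSG00000058427) spans 90903871 to 90905938. Cxcr2 (ENSMUSG00000026180) is on chromosome 1, at 74153989 to 74161246, and its relative Cxcr1 lies beside it. The sequences just before the 4 start sites are shown because the ligands were partly made by the same myeloid cells, and because the 3 share a pair of runs that the receptor lacks. They come from RefSeq (GRCm38.p6, plus strand), end before the earlier of the RefSeq and GENCODE start sites, and run from chr5:90891145-90891240, chr5:90903799-90903870, chr5:90786001-90786100 and chr1:74153894-74153988 in the order printed. Capitals mark the exact runs of at least 8 bases that all 3 ligands share, GGGAATTTCCC, which holds a classical NF-κB site, and ATAAAAGG, which resembles a TATA box.
Cxcl1: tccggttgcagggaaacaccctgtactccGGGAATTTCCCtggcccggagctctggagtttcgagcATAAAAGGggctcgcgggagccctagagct
Cxcl2: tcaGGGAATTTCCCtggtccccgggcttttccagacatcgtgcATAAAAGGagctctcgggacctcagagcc
Cxcl3: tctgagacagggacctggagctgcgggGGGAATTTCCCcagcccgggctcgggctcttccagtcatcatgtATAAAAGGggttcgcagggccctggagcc
Cxcr2: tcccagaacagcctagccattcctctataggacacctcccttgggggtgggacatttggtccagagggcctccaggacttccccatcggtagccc

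The windows searched ran from 250 bases before to 50 bases after the RefSeq start, on both strands, and the shared runs were sought in the 250 bases before it. GGGAATTTCCC was present in 14 of 32851 windows of all genes (0.0426%), and ATAAAAGG in 577 windows (1.76%). Both together were found in 3 windows, those of the ligands from which the runs had been read. Counted back from the GENCODE start, the TATA-like run lay at 30 to 23 bases in Cxcl1, 29 to 22 in Cxcl2 and 31 to 24 in Cxcl3. The NF-κB run lay at 67 to 57, 69 to 59 and 75 to 65 bases in the same order. The AP-1 motif TGANTCA was in 2565 windows (7.81%) and in none of the 4 genes. Cxcr2 held neither of the shared runs. The printed Cxcl1 and Cxcl3 stretches were identical at 65.7% of aligned positions, gaps included (71 bases). Cxcl1 and Cxcl2 were identical at 57.3% and Cxcl2 and Cxcl3 at 55% (55 bases each). Cxcr2 with each ligand lay between 45.4% and 46%. The printed Cxcl2 stretch has 72 bases, against 96 for Cxcl1 and 100 for Cxcl3. Its shorter length adds gaps and lowers its shares, so these do not rank the ligands by likeness. A match describes these letters and does not show a bound factor.

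**Figure D1:**
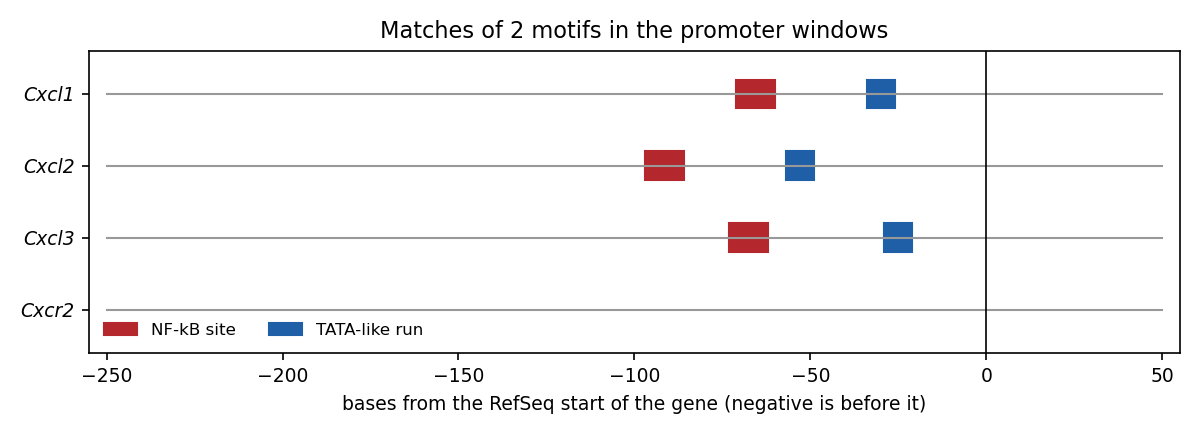
Matches of the 2 shared runs along the promoter windows of the 4 genes, as bases from the RefSeq start (x axis), one gene per line. Each ligand has 1 NF-κB run (red) upstream of 1 TATA-like run (blue), and Cxcr2 has neither.

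Neutrophil-like cells held most of the Cxcl2 and nearly all of the Cxcr2, while Cxcl1 was at its highest level in stellate cell or fibroblast-like cells and Cxcl3 came from a few myeloid cells. Over all kept cells the FL/FL library had 20126 UMIs of Cxcl2, 2561 of Cxcr2, 566 of Cxcl1 and 466 of Cxcl3. The ΔMAC library had 8945, 2282, 244 and 26 UMIs in the same order. Relative to the total of each library, Cxcl2 stood at 404 and 221 CPM (ratio ΔMAC over FL/FL 0.548, 0.534 to 0.562) and Cxcl3 at 9.35 and 0.643 CPM (ratio 0.0688, 0.0444 to 0.102). Cxcl1 stood at 11.4 and 6.03 CPM (ratio 0.531, 0.455 to 0.618), and Cxcr2 at 51.4 and 56.4 CPM (ratio 1.10, 1.04 to 1.16). These totals also depend on how many cells of each type a library held. Levels are not compared between genes, since UMIs were counted at the 3' end without a scale of length or capture.

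**Figure D2:**
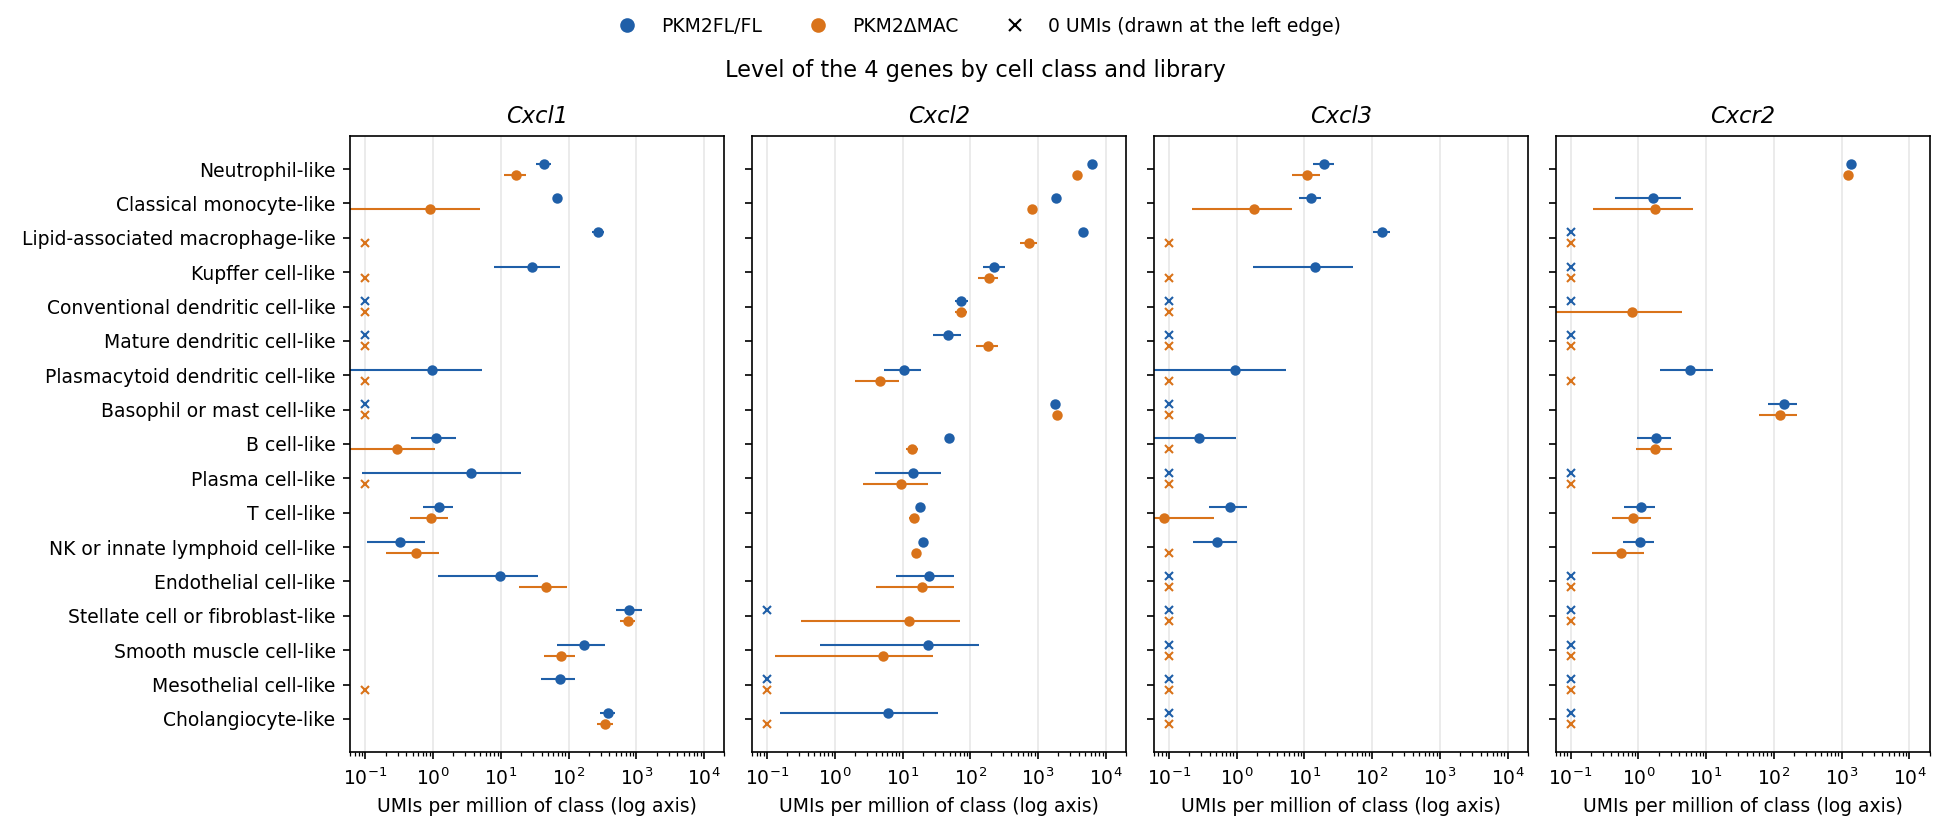
Level of each gene (CPM of the cell type's total, log axis) in 17 cell types of the FL/FL library (blue) and the ΔMAC library (orange), with counting intervals as bars and crosses at the left edge for 0 UMIs. Cxcl2 and Cxcr2 peak in neutrophil-like cells, and Cxcl1 in stellate cell or fibroblast-like cells at 789 and 756 CPM.

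Neutrophils arrive from the blood in an inflamed liver and make Cxcl2 themselves. The 715 FL/FL neutrophil-like cells had 10315 Cxcl2 UMIs, or 6256 CPM (6136 to 6378), and the 692 ΔMAC cells had 6499 UMIs, a level of 3735 CPM (3644 to 3827). The level was thus lower in the ΔMAC library, with a ratio of 0.597 (0.579 to 0.616). In single FL/FL cells the number of Cxcl2 UMIs ran from 0 through a median of 7 to 668, and in ΔMAC cells from 0 through a median of 3 to 159. The cells of the 2 libraries overlapped widely. A UMI was present in 79.9% (76.7 to 82.7) of FL/FL and 66.9% (63.3 to 70.4) of ΔMAC neutrophil-like cells, at median depths of 2163 and 2358 UMIs. With every cell thinned to 1000 UMIs, which left out 36 and 11 shallower cells, the shares were 71.9% (68.3 to 75.2) and 58.3% (54.5 to 62.0). Among cells that had any Cxcl2, the median was 11 UMIs in the FL/FL library and 9 in the ΔMAC library. B cell-like cells, which should lack the gene, had a Cxcl2 UMI in 5.62% (4.69 to 6.68) and 2.70% (2.09 to 3.43) of cells at median depths of 3155 and 2730 UMIs.

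The neutrophil-like cells of the 2 libraries also differed across genes at large, with a median log2 ratio over 6585 genes of -0.31 (ΔMAC over FL/FL). S100a8 and S100a9, the calprotectin genes that dominate neutrophil RNA, took 8.88% of the class's UMIs in the FL/FL library and 14.8% in the ΔMAC library. Relative to the median gene the Cxcl2 ratio was 0.741, and with S100a8 and S100a9 left out of the totals it was 0.639. It stayed below 1 in each of the 13 alternatives run. Of the 4 genes, Cxcl1 alone was at least 2-fold lower in the ΔMAC neutrophil-like cells and none was at least 2-fold higher. Of all 6585 genes with at least 20 UMIs, 9.49% were at least 2-fold lower and 1.43% at least 2-fold higher. Those were 625 and 94 genes, against 250 and 214 when ratios were centred on the median gene.

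**Figure D3:**
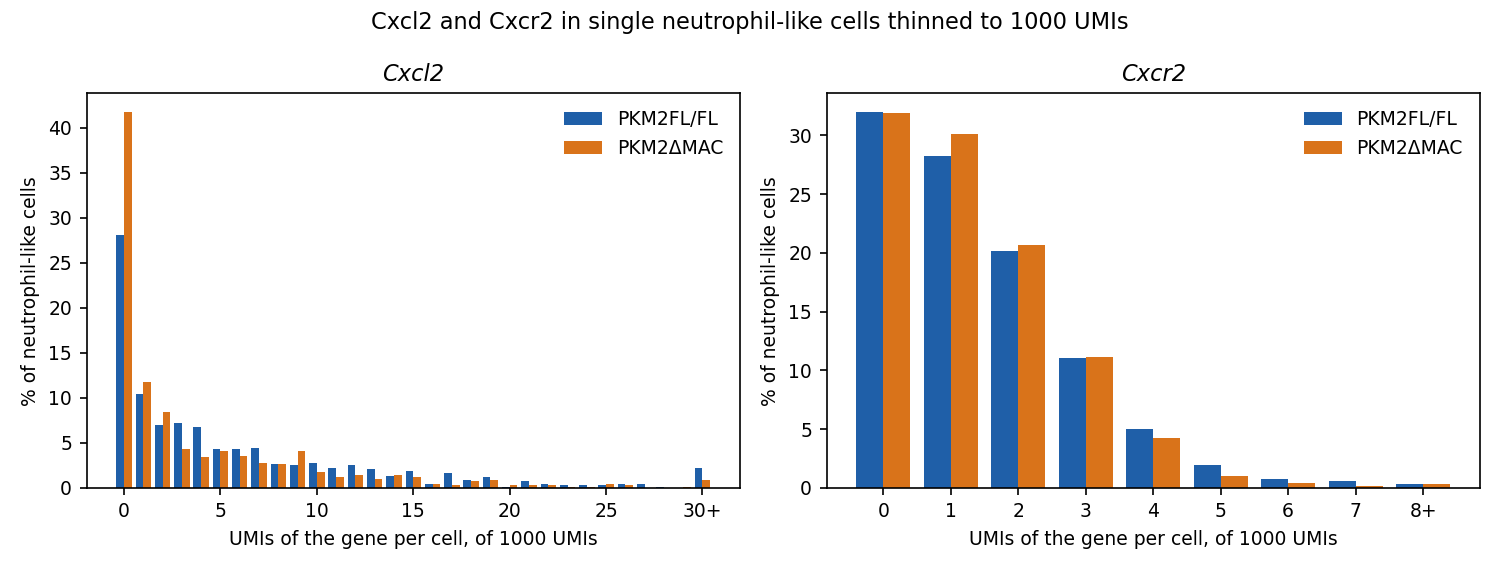
Share of neutrophil-like cells (y axis) by the number of Cxcl2 or Cxcr2 UMIs they held (x axis) after each cell was thinned to 1000 UMIs, for the FL/FL (blue) and ΔMAC (orange) libraries. Cells without Cxcl2 were 28.1% of FL/FL and 41.7% of ΔMAC cells, while the Cxcr2 bars nearly coincide.

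Classical monocyte-like cells, the inflammatory Ly6C-high cells that enter from blood and turn into macrophages, showed a wider gap. Cxcl2 was at 1866 CPM (1812 to 1921) in 274 FL/FL cells and at 822 CPM (769 to 877) in 142 ΔMAC cells, from 4491 and 917 UMIs (ratio 0.440, 0.410 to 0.473). The gap lay in how many cells had the transcript. A Cxcl2 UMI was found in 52.9% (46.8 to 59.0) of FL/FL and 23.2% (16.6 to 31.1) of ΔMAC cells, and after thinning to 1000 UMIs in 36.1% (30.4 to 42.1) and 15.3% (9.75 to 22.5). Among the positive cells the median was 15 and 14 UMIs, which is nearly equal. The ΔMAC sum rested on few cells, since 5 of them held 54.3% of its UMIs, against 19.6% in the 5 highest FL/FL cells. Without the cell with the most UMIs in each library, an alternative chosen after seeing the data, the ratio was 0.396. S100a8 and S100a9, the leading genes of neutrophils, made up 0.00927% and 0.0153% of monocyte-like UMIs in the FL/FL and ΔMAC libraries, beside 8.88% and 14.8% in neutrophil-like cells, and the part of neutrophil RNA in the Cxcl2 sums was not tested.

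Lipid-associated macrophage-like cells carry Gpnmb, Trem2, Fabp5 and Gdf15, genes of macrophages that clear lipid and gather at scars. In 29 FL/FL cells Cxcl2 was at 4558 CPM (4345 to 4778), and 25 of the 29 cells (86.2%, 68.3 to 96.1) had a UMI. The median over all 29 cells was 23 UMIs, that of the cells with any was 30, and the highest was 426. In 7 ΔMAC cells it was at 724 CPM (539 to 951), and 4 of the 7 cells (57.1%, 18.4 to 90.1) had a UMI, with a highest value of 23. The ratio was 0.159 (0.118 to 0.210), and thinning to 1000 UMIs per cell gave 0.0628 from 132 and 2 UMIs. With 7 cells on one side the counting interval says little about how other cells of this kind would differ.

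All 3 ligands with at least 20 UMIs were at least 2-fold lower in the ΔMAC library in both classical monocyte-like and lipid-associated macrophage-like cells. Among all genes with at least 20 UMIs, 4.56% were at least 2-fold lower and 1.99% higher in monocyte-like cells. In lipid-associated macrophage-like cells these were 16.8% and 7.96%, that is 508 and 240 of 3016 genes, or 685 and 151 with TMM scaling, a trimmed mean of ratios. The genes were chosen knowing this contrast, so nothing is read from their count.

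Resident Kupffer-like cells, marked by Clec4f, Cd5l and C1qa, had little of the ligands. Their Cxcl2 level was 225 CPM (153 to 320) in 107 FL/FL cells and 187 CPM (131 to 259) in 112 ΔMAC cells, from 31 and 36 UMIs, with a ratio of 0.830 (0.499 to 1.39) that includes 1. One ΔMAC cell held 17 of the 36 UMIs. These cells were shallow, with medians of 1013 and 1068.5 UMIs, and a Cxcl2 UMI was present in 16.8% (10.3 to 25.3) of FL/FL and 7.14% (3.13 to 13.6) of ΔMAC cells. Thinned to 500 UMIs, which kept all cells, the shares were 9.35% (4.57 to 16.5) and 2.68% (0.556 to 7.63) and the ratio of UMIs was 0.409. Thinned to 1000 UMIs, which left out 52 and 51 cells, they were 9.09% (3.02 to 19.95) and 8.20% (2.72 to 18.1). Without the top cell of each library the ratio was 0.512.

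Basophil or mast cell-like cells ranked with the myeloid producers. Cxcl2 was at 1756 CPM (1529 to 2008) in 25 FL/FL cells and 1909.8 CPM (1634 to 2219) in 17 ΔMAC cells (ratio 1.09, 0.884 to 1.34). The UMIs came from 6 FL/FL cells and 3 ΔMAC cells, 1 of which held 108 of 171 UMIs. Without the top cell of each library the ratio turned to 0.622, and with cluster-based types it was 1.45. By level averaged over the libraries the order was neutrophil-like, lipid-associated macrophage-like, basophil or mast cell-like, classical monocyte-like and Kupffer-like cells. Between basophil-like and monocyte-like cells the FL/FL intervals overlapped, and between lipid-associated macrophage-like and basophil-like cells the order was the opposite in the ΔMAC library.

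Conventional dendritic-like cells had Cxcl2 at 74.1 and 74.0 CPM (ratio 0.999, 0.734 to 1.36). The ratio was 0.744 when thinned to 1000 UMIs, from 12 and 10 UMIs. Thinned to 500 UMIs it was 0.595, from only 3 and 2 UMIs. In mature dendritic-like cells it was at 46.6 and 181 CPM, from 19 and 29 UMIs (ratio 3.90, 2.11 to 7.35), of which 1 ΔMAC cell held 28. In lymphocytes the ratio was 0.283 (0.222 to 0.356) in B cell-like, 0.819 (0.671 to 0.998) in T cell-like and 0.791 (0.652 to 0.956) in NK or innate lymphoid-like cells, at levels of at most 48.6 CPM. Thinned to 1000 and 500 UMIs, the T cell-like ratio was 0.934 and 0.546, so the 2 depths moved it in opposite directions. The NK or innate lymphoid-like ratio was 0.525 and 0.647. The B cell-like value rested on a few cells, 1 with 90 of 352 FL/FL UMIs, and was 0.795 when cells were typed by clusters in place of markers and 0.455 as a mean of each cell's own CPM. In B cell-like cells 2.26% of all measured genes were at least 2-fold lower and 1.57% higher. For every 100 UMIs of S100a8, lymphocyte-like cells of the FL/FL library had 48.4 to 80.9 UMIs of Cxcl2, against 16.6 in neutrophil-like cells. In the ΔMAC library this was 11.9 to 24.2 against 5.84. The part of free RNA in the lymphocyte values was not tested.

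Counting all cell types, neutrophil-like cells held 51.2% of the Cxcl2 UMIs of the FL/FL library and 72.7% of those of the ΔMAC library. The share of classical monocyte-like cells was 22.3% and 10.3%, and that of lipid-associated macrophage-like cells 8.57% and 0.570%. These shares also move with cell numbers, and the ΔMAC library had 142 monocyte-like and 7 lipid-associated macrophage-like cells against 274 and 29. Cells without an assigned type held 11.5% and 7.75%.

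**Figure D4:**
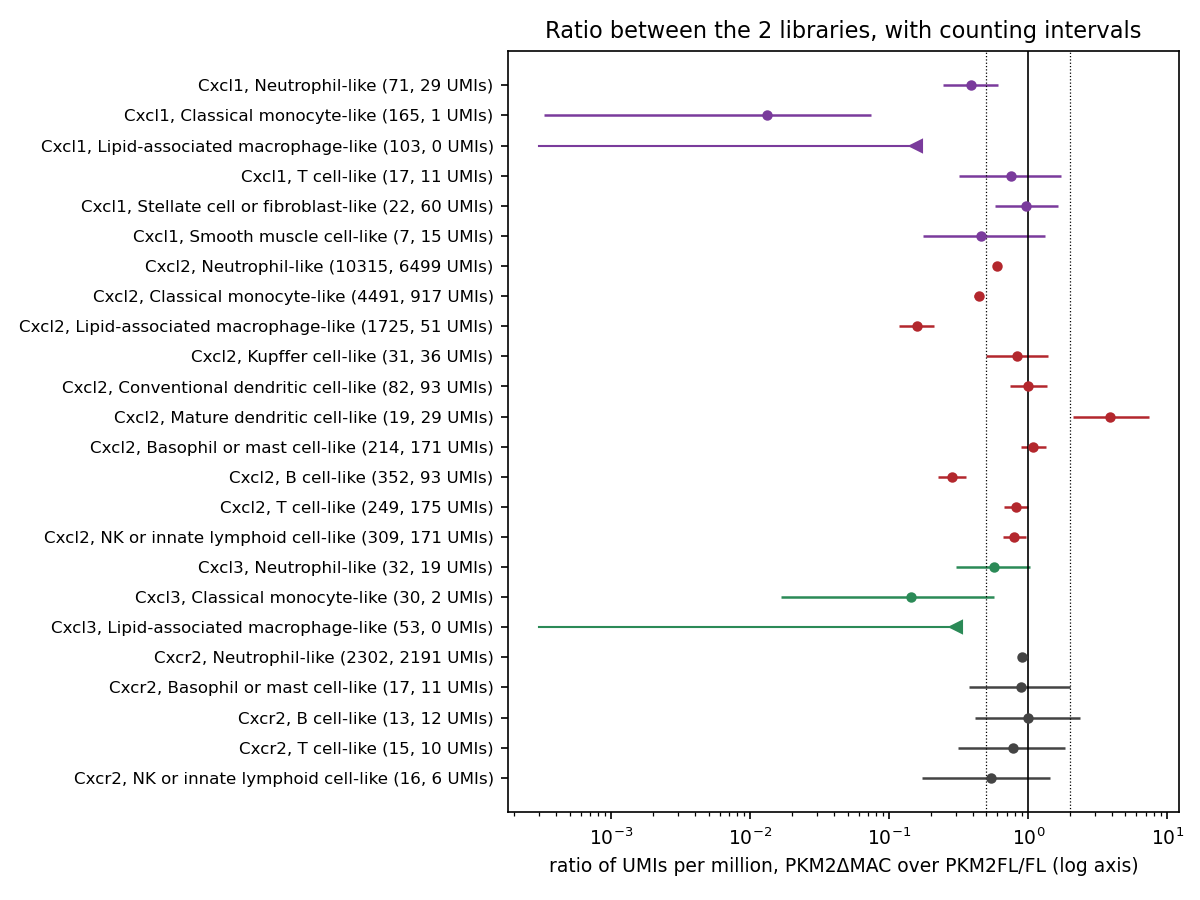
Ratio of the ΔMAC level to the FL/FL level (log axis) for each gene and cell type with at least 20 UMIs, cholangiocyte-like cells left out, with counting intervals and the UMI counts of the FL/FL and ΔMAC libraries in parentheses. Dotted lines mark 2-fold, and arrowheads mark upper bounds from a floor of 3 counts where the ΔMAC library had 0 UMIs. The lowest value of each ligand lies in monocyte-like or macrophage-like cells, and Cxcr2 in neutrophil-like cells lies close to 1.

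Cxcl1, known in the mouse as KC and a main early signal from tissue cells to blood neutrophils, was spread over stromal, epithelial and myeloid cells. Its highest level was in stellate cell or fibroblast-like cells, which lay down the matrix of a scarring liver. It was at 789 CPM (495 to 1195) in 6 FL/FL cells and at 756 CPM (577 to 973) in 23 ΔMAC cells (ratio 0.957, 0.579 to 1.64). The direction was not settled, since the ratio was 0.873 relative to the median gene, 1.43 as a mean of each cell's own CPM and 1.62 with cluster-based types. It was 1.02 when thinned to 1000 UMIs. Thinned to 500 UMIs it was 2.61, from only 1 FL/FL and 10 ΔMAC UMIs. In the FL/FL library 2 of the 6 cells had all 22 UMIs, and in the ΔMAC library 9 of the 23 cells had 60. Cholangiocyte-like cells were next at 383 and 346 CPM from 63 and 53 UMIs in 10 and 8 cells, of which 4 in each library had any. The 10 leading genes of that class mixed hepatocyte genes such as Alb and Ttr with bile duct genes such as Krt8 and Krt18. It is therefore given by its gate and not compared between libraries. In smooth muscle-like cells the level was 168 and 76.6 CPM from 7 and 15 UMIs. Mesothelial-like cells had 13 UMIs in 2 of 21 FL/FL cells and 0 in 28 ΔMAC cells.

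In monocyte-like and macrophage-like cells nearly all Cxcl1 UMIs were in the FL/FL library, and they came from few of its cells. Classical monocyte-like cells had 165 UMIs in 18 of 274 FL/FL cells, a level of 68.6 CPM (58.5 to 79.9), and 1 UMI in 142 ΔMAC cells, a level of 0.896 CPM (ratio 0.0131, 0.000329 to 0.0738). The highest FL/FL cell held 32 of the 165 UMIs, and the 5 highest held 69.1%. A Cxcl1 UMI was present in 6.57% (3.94 to 10.2) of FL/FL and 0.704% (0.0178 to 3.86) of ΔMAC monocyte-like cells. The interval of the ratio counts UMIs as independent, so it is too narrow for a sum held by few cells. Lipid-associated macrophage-like cells had 103 UMIs in 7 of 29 FL/FL cells (272 CPM, 222 to 330) and 0 UMIs in 7 ΔMAC cells. Against a floor of 3 counts in the ΔMAC library that is at least 6.39-fold lower, while the exact interval of the ratio reached up to 0.196. A pair of FL/FL cells with 50 and 34 UMIs made up most of that sum, and at a limit of 3 counts 0 of 7 cells allows a share of cells with a UMI of up to 42.9%. Neutrophil-like cells had 71 UMIs in 24 FL/FL cells and 29 in 9 ΔMAC cells (43.1 and 16.7 CPM, ratio 0.387, 0.242 to 0.604). Their share with a Cxcl1 UMI was 3.36% (2.16 to 4.95) and 1.30% (0.596 to 2.45), beside 0.372% and 0.0844% in B cell-like cells. Endothelial-like cells had 2 and 7 UMIs (9.87 and 45.9 CPM, ratio 4.65, 0.885 to 45.9), an interval that includes 1.

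Cxcl3, a close relative of Cxcl2, came from very few cells. A single FL/FL cell held 264 of the 492 UMIs of both libraries (53.7%), and the next held 62. Both cells had no type by the marker rule and grouped with the classical monocytes when cells were clustered. That cluster also held lipid-associated macrophage-like cells, so it does not separate the 2 kinds. The cells had 23569 and 11001 UMIs in all and 183 and 140 UMIs of Cxcl2. Of the monocyte markers Lyz2 and Fn1 they had 8 and 2 UMIs, and 35 and 0 UMIs. Of the macrophage marker Mmp12 they had 0 and 28 UMIs, but of Gpnmb and of Trem2 each only 1 and 0 UMIs. In lipid-associated macrophage-like cells Cxcl3 had 53 UMIs in 4 of 29 FL/FL cells (140.0 CPM, 105 to 183) and 0 in 7 ΔMAC cells. Against the same floor that is at least 3.29-fold lower, while the exact interval of the ratio reached up to 0.387. The share of cells with a UMI was 13.8% (3.89 to 31.7) in the FL/FL library. By the exact interval 0 of 7 ΔMAC cells allows up to 41.0%, so the shares do not separate the libraries. Classical monocyte-like cells had 30 UMIs in 6 FL/FL cells, of which 1 held 20, and 2 UMIs in 1 ΔMAC cell (ratio 0.144, 0.0166 to 0.567). Neutrophil-like cells had 32 UMIs in 19 FL/FL cells and 19 UMIs in 13 ΔMAC cells, with a ratio of 0.563 (0.301 to 1.02) that includes 1, and thinning to 1000 UMIs turned it to 1.27. The transcripts of Cxcl2 and Cxcl3 share an exact run of 157 bases, so reads there could be split between them, but in their last 300 bases, where 3' tags mostly fall, the longest shared run was 16 bases. No Cxcl3 UMI was found in stellate, smooth muscle, mesothelial, cholangiocyte or endothelial-like cells.

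**Figure D5:**
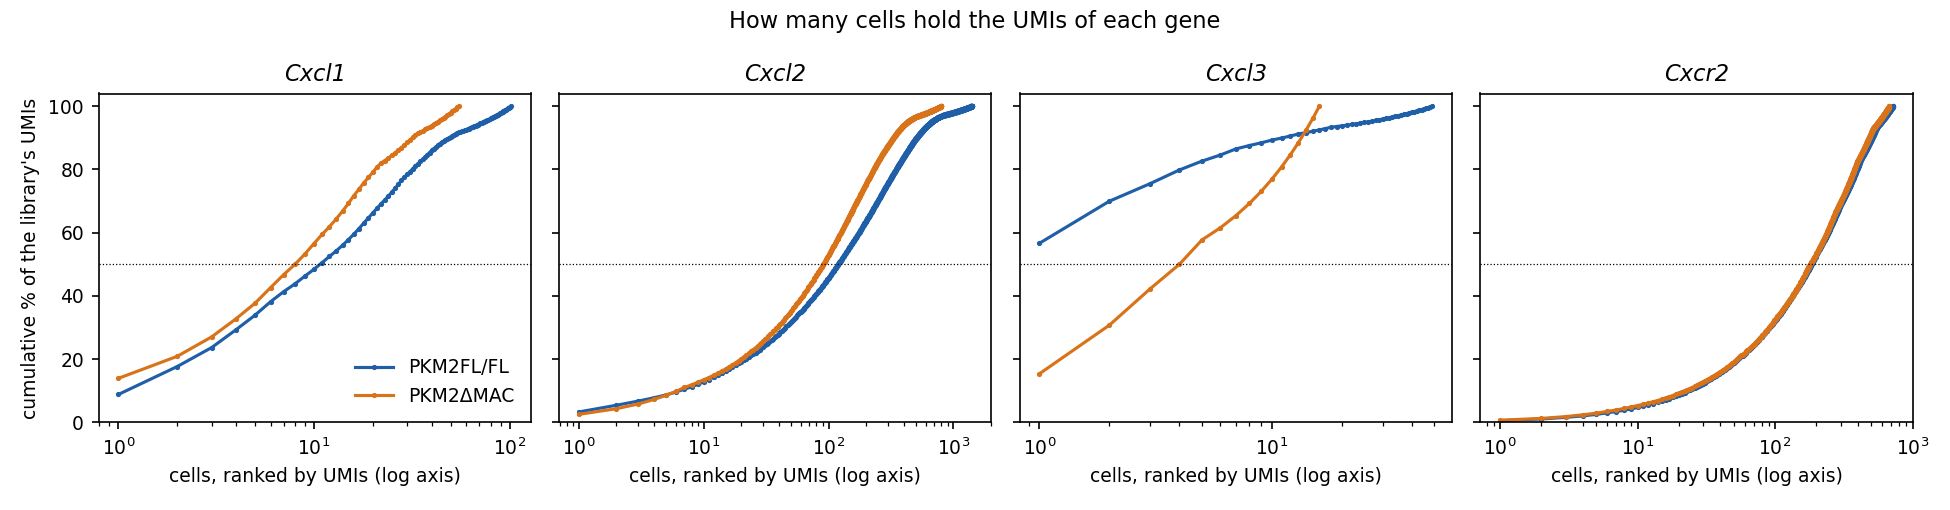
Cumulative share of each gene's UMIs (y axis) held by the cells with the most UMIs (x axis, number of cells, log axis), for the FL/FL (blue) and ΔMAC (orange) libraries. The dotted line at 50% of the FL/FL UMIs was reached with 1 cell for Cxcl3, 11 for Cxcl1, 120 for Cxcl2 and 185 for Cxcr2.

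Cxcr2, the receptor, had its highest levels in neutrophil-like and then basophil or mast cell-like cells. The highest level in any other cell type was 5.73 CPM (2.10 to 12.5) in FL/FL plasmacytoid dendritic-like cells. It came from 6 UMIs in 2 of 128 cells, and the 236 ΔMAC cells of that type had 0 UMIs. Neutrophil-like cells had 2302 FL/FL UMIs, or 1396 CPM (1340 to 1454), and 2191 ΔMAC UMIs, or 1259 CPM (1207 to 1313). They held 89.9% and 96.0% of all Cxcr2 UMIs. Single cells had a median of 3 UMIs in both libraries and at most 14 and 16. The ratio was 0.902 (0.850 to 0.957), but 1.12 relative to the median gene and 1.13 with TMM scaling, so its direction depended on the scaling. A UMI was present in 86.3% (83.6 to 88.7) of FL/FL and 90.03% (87.6 to 92.2) of ΔMAC neutrophil-like cells, and after thinning to 1000 UMIs in 68.0% (64.4 to 71.5) and 68.1% (64.5 to 71.6). Cxcr2 is also among the 10 leading genes of this class, although it was not used to assign cells.

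Basophil or mast cell-like cells had Cxcr2 at 139 CPM (81.3 to 223) and 123 CPM (61.3 to 219.8), from 17 and 11 UMIs, with a UMI in 8 of 25 and 7 of 17 cells. Lymphocyte-like cells had a Cxcr2 UMI in at most 0.661% of cells. For every 100 UMIs of S100a8 they had 2.50 to 3.18 UMIs of Cxcr2 in the FL/FL library and 0.850 to 1.54 in the ΔMAC library, beside 3.69 and 1.97 in neutrophil-like cells. The part of free RNA in these shares was not tested. Monocyte-like cells had 4 and 2 UMIs. Kupffer-like, lipid-associated macrophage-like and stromal cells had 0 UMIs. In Kupffer-like cells 0 of 107 FL/FL and 0 of 112 ΔMAC cells allow a share with a UMI of up to 2.80% and 2.68% at a limit of 3 counts, or 3.39% and 3.24% by the exact interval.

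Ligand and receptor were present together in the same neutrophil-like cells. At 1000 UMIs per cell, 326 of 679 FL/FL cells and 258 of 681 ΔMAC cells held both Cxcl2 and Cxcr2. The cells richest in Cxcl2 had less Cxcr2 than the cells with none. In the FL/FL library Cxcr2 was found in 71.2% (64.2 to 77.5) of the 191 cells with no Cxcl2 UMI and in 54.6% (46.3 to 62.7) of the 152 cells with 10 or more. In the ΔMAC library it was found in 72.5% (67.0 to 77.6) of 284 cells and 59.3% (48.5 to 69.5) of 91 cells. Mean Cxcr2 was 1.52 and 1.08 UMIs in these FL/FL cells and 1.56 and 1.05 in the ΔMAC cells. The fall was not steady in the FL/FL library, where 75.1% (68.8 to 80.8) of cells with 1 to 4 Cxcl2 UMIs had Cxcr2. With 5 to 9 Cxcl2 UMIs it was 67.5% (58.4 to 75.6). In the ΔMAC library these shares were 69.3% (62.2 to 75.8) and 62.4% (53.0 to 71.2). Cells of 1 library are not replicates, so this pattern carries no test.

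The neutrophil-like cells with 10 or more Cxcl2 UMIs also differed from those with none in other inflammatory genes. Tnf, a cytokine that activates NF-κB, was at 626 against 83.6 CPM in the FL/FL library and 631 against 40.4 CPM in the ΔMAC library. Ccl3, a chemokine for monocytes and T cells, was at 1386 against 142 CPM and 1368 against 94.6 CPM. Nfkbia, the NF-κB inhibitor that NF-κB itself induces, was at 6367 against 1876 CPM and 4094 against 1044 CPM. Il1b was at 10065 against 7365 CPM and 6399 against 4816 CPM. S100a8 ran the other way, at 31510 against 39228 CPM and 52113 against 67454 CPM. Most neutrophil-like cells had a UMI of Irg1 or Slc7a11, genes of activated neutrophils, with 663 cells (92.7%) in the FL/FL library and 594 cells (85.8%) in the ΔMAC library. Cxcl2 was at 6512 CPM in those FL/FL cells and 2448 CPM in the other 52, and at 3981 and 2057 CPM in the ΔMAC cells. In classical monocyte-like cells Cxcl1 came with Cxcl2, since 9 of the 11 thinned FL/FL cells with Cxcl1 also held Cxcl2.

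Genes that act around the chemokines were read from fixed lists. In neutrophil-like cells 30 of the listed genes had at least 20 UMIs, of which 4 were at least 2-fold lower in the ΔMAC library and none higher, beside 9.49% and 1.43% of all genes. With ratios centred on the median gene 2 of the 30 were lower, beside 250 of all 6585 genes. Both counts lay not far above the share of all genes, so nothing is read from them. All 4 genes lower without centring belong to the list of inducers and inhibitors of ligand transcription. Its 9 measured members had a median log2 ratio of -0.94, beside -0.31 over all genes. The 4 were Il1a, an alarm cytokine (-1.57), Tnfaip3, which encodes the NF-κB inhibitor A20 (-1.42), the NF-κB subunit gene Nfkb1 (-1.21) and Nfkbia (-1.07). After centring, Il1a (-1.26) and Tnfaip3 (-1.11) stayed past 2-fold, while Nfkb1 (-0.895) and Nfkbia (-0.756) did not. Without centring, Il1b, the main inducer of the ligands, had a log2 ratio of -0.65 and Tnf -0.59. The 6 other chemoattractant receptors had a median of -0.05 and ranged from Fpr2 (-0.30), a formyl peptide receptor, to Cxcr4 (0.11), which holds neutrophils in bone marrow. The 7 genes of receptor signalling and desensitisation had a median of -0.14, with Arrb1, an arrestin gene, lowest at -0.87. The 5 adhesion genes had a median of -0.14, from Icam1 (-0.97) to Selplg (0.24), the gene of the selectin ligand PSGL-1.

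In classical monocyte-like cells 29 listed genes were measured, of which 4 were at least 2-fold lower and 1 higher, beside 4.56% and 1.99% of all genes. The median log2 ratio over all genes was -0.04. The lower ones were Nfkbiz, an NF-κB cofactor (-1.49), Tnfaip3 (-1.16), Nfkbia (-1.08) and Csf3, the gene of the neutrophil growth factor G-CSF, with 25 FL/FL UMIs and 1 ΔMAC UMI (ratio 0.0862, 0.00210 to 0.527). The higher one was Rgs18, which restrains G protein signalling (1.43). Tnf had a log2 ratio of -0.99 and Il1b -0.21. In lipid-associated macrophage-like cells 20 were measured, 4 lower and 4 higher, beside 16.8% and 7.96% of all genes. The lower share lay near that of all genes and the higher share above it, and with 7 ΔMAC cells nothing is read from either. The lower ones were Ccr1 (-2.16), Itgb2 (-1.99), Nfkbiz (-1.21) and Selplg (-1.16), and the higher ones Cxcr4 (1.62), Zfp36 (1.06), Icam1 (1.02) and Rela (1.01), all over 7 ΔMAC cells. The interval of the ratio included 1 for Ccr1 (24 and 1 UMIs, 0.00544 to 1.37), Selplg (48 and 4 UMIs, 0.117 to 1.22) and Rela (16 and 6 UMIs, 0.645 to 5.42).

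Other CXCR2 ligands were nearly missing from these cells. Cxcl5 and Cxcl15, which neighbour the 3 ligands on chromosome 5, had 0 UMIs, and the platelet chemokine gene Ppbp had 156 in all. Cxcr1, the receptor beside Cxcr2, had 100 UMIs, 95 of them in neutrophil-like cells (32.8 and 23.6 CPM). Cxcl12, the ligand of CXCR4, had 159 UMIs, 79 of them in stellate cell or fibroblast-like cells. Il17a, a T cell cytokine that induces Cxcl1 in stromal cells, was at 47.4 CPM in FL/FL and 92.6 CPM in ΔMAC T cell-like cells, from 656 and 1100 UMIs.

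The genes whose levels most resembled each of the 4 were ranked over 34 profiles (17 cell types in each of the 2 libraries) by Pearson's r of log2(CPM + 10), among 10596 genes. Profiles share their libraries and marker gates, so r is a description. For Cxcl2 they were Igsf6 (0.944), Nlrp3, an inflammasome gene (0.929), and C5ar1, the receptor for complement C5a (0.918). For Cxcr2 they were Padi4, an enzyme of neutrophil nuclei (0.9499), H2-Q10 (0.947) and Bmx (0.917). Cxcl1 was closest to Angptl4 (0.780) and Fmo2 (0.759), and Cxcl3 to Lyz2, the lysozyme gene of myeloid cells (0.745). The Cxcl3 profile rested on only 161 UMIs, below the 200 required of the genes it was ranked against. The untyped cells with 264 and 62 Cxcl3 UMIs were not in the profiles, and they held only 8 and 2 UMIs of Lyz2. Between the members r was 0.652 for Cxcl2 and Cxcr2, 0.619 for Cxcl2 and Cxcl3, and -0.11 for Cxcl1 and Cxcl2.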

How the data were processed

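The deposited values were raw UMI counts per gene and cell barcode for 2 libraries, which the authors produced using Cell Ranger (6.0.0, per the file headers). The submitters' processing notes name build mm10 and Seurat 4.3.0. The kit is a 10x Chromium 3' kit of unclear version per the labels' protocols. The lowest barcode had 502 UMIs, so barcodes had been filtered before deposit, by a rule not given in the sources used here. The libraries held 10054 and 8949 barcodes with 54519921 and 43134027 UMIs.

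Cells with at least 300 genes and under 20% mitochondrial UMIs were kept, and doublets were removed with Scrublet in scanpy 1.11.5 (expected rate 0.08), 480 (4.80%) in the FL/FL and 328 (3.69%) in the ΔMAC library. Free RNA was not subtracted. A cell took the type with the highest share of its markers detected, given at least 3 markers and 1.5 times the share of any type of another lineage. Leiden clusters (26, igraph 0.11.9) were the alternative. UMIs were summed per type and divided by its total (CPM), with exact Poisson, conditional and Clopper-Pearson intervals. Of these only the conditional intervals, used for ratios, were run on simulated sums. Those sums were drawn as Poisson counts, which the interval itself assumes. The simulation therefore cannot show how the intervals hold where a few cells carry a sum. A gene counted as apart at 2-fold or more with at least 20 UMIs in both libraries together. Named genes are the 4 members, the fixed pathway lists and up to 5 genes of most similar profile per member. The members and lists were chosen with earlier results of these data known.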

Additional observations from a re-analysis of the deposited data

How the results depend on the processing

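Of 190 alternative ratios for 15 combinations of gene and cell type, 161 were below 1. The alternatives reuse the same cells and most main ratios were already below 1, so this count is no measure of support. Cxcl2 in mature dendritic-like cells, with a main ratio of 3.90, was not among the combinations. The Cxcl2 ratio in neutrophil-like cells (0.597) was 0.654 with cluster-based types, 0.632 as a mean of each cell's own CPM, 0.741 relative to the median gene, 0.750 with TMM scaling, and 0.656 and 0.638 with cells thinned to 1000 and 500 UMIs. It was 0.622 without the top cell and 0.639 without S100a8 and S100a9, both alternatives chosen after seeing the data. In classical monocyte-like cells (0.440) it was 0.354 with clusters, 0.401 and 0.360 when thinned to 1000 and 500 UMIs and 0.396 without the top cell. In lipid-associated macrophage-like cells (0.159) it was 0.0628 when thinned to 1000 UMIs. The Cxcr2 ratio in neutrophil-like cells (0.902) was 0.959 with clusters, 0.958 when thinned to 500 UMIs and 0.965 without S100a8 and S100a9, and it turned to 1.12 relative to the median gene and 1.13 with TMM scaling, which follows from the median log2 ratio of -0.31 over all genes there. The causes of the other shifts were not tested. Cxcl3 in neutrophil-like cells ranged from 0.529 to 1.27 and Cxcl1 there from 0.264 to 0.486.

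Counts of genes at least 2-fold apart moved with the threshold by construction. With at least 50 UMIs, 281, 115 and 175 genes were lower and 33, 65 and 81 higher in neutrophil-like, classical monocyte-like and lipid-associated macrophage-like cells. At 1.5-fold, 1872, 1045 and 837 were lower and 284, 644 and 533 higher. No cluster was named conventional dendritic, so that alternative gave no value for the type. No paired analysis was possible because each genotype had 1 library.

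Intervals cover counting error and not animals or preparations. Types with few cells, chiefly lipid-associated macrophage-like (29 and 7) and stellate cell or fibroblast-like (6 and 23), limit what a 0 or a ratio shows, and sums of Cxcl1 and Cxcl3 rest on a handful of cells.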

Other observations

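Cells without an assigned type numbered 876 in the FL/FL and 690 in the ΔMAC library. Their Cxcl2 level was 440.5 CPM (423 to 459) and 193 CPM (179 to 208), from 2317 and 693 UMIs, and 1 ΔMAC cell, which grouped with neutrophils when clustered, held 229 of them. Cxcl1 in these cells was at 15.97 and 16.7 CPM, and Cxcr2 at 35.7 and 13.7 CPM. Their Cxcl3 stood at 327 UMIs in 3 FL/FL cells and 4 UMIs in 1 ΔMAC cell. The platelet chemokine genes were found mainly here, with 83 and 1 UMIs of Ppbp and 155 and 102 of Pf4.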
